A study of Petromyzon marinus with 6 samples.

Results

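RNA of whole sea lamprey embryos (Petromyzon marinus, a jawless vertebrate) sampled 3 days after fertilization was compared with RNA of embryos sampled at 2.5 days, which uses 2 of the 6 paired-end RNA-seq libraries of a developmental series. The libraries were chosen by stage alone. The series has 1 library each for day 1, day 2, day 2.5, day 3, day 4 and day 5, all from whole embryos, and its labels name no treatment and do not say how many embryos a library holds. With 1 library per stage no comparison has a replicate check and no p-value is given. Intervals of folds cover counting error only. Intervals of shares are binomial over the members counted and take these as independent, which was not tested. No interval covers variation between embryos or libraries. In whole embryos, fewer cells of a type and less RNA per cell cannot be told apart.

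An early animal embryo first runs on RNA that the mother placed in the egg. The embryo's own genome is then switched on and maternal RNAs are cleared, a handover called the maternal-to-zygotic transition. In lampreys, moreover, somatic cells lose a portion of the genome early in development.

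The day 3 library held 20769563 expected counts, which are RSEM's estimates of the fragments from each transcript, and the day 2.5 library held 18387549. The other libraries ranged from 15503408 (day 5) to 21910029 (day 1). The 145913 assembled contigs fall into 87262 components, taken as contigs that share an identifier apart from its sequence number. Features with 60 or more counts over the 6 libraries were tested, which left 31144 components and 47521 contigs. A reference table of 45433 lamprey genes matched none of the identifiers, so components are described by level, length and time course and are given no gene name or role.

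Levels are in CPM, counts scaled to a common library size, after TMM scaling, which set a factor of 0.876 for day 3 and 1.20 for day 2.5. A feature was called when its fold on the log2(CPM + 0.5) scale was 4 or more either way and the exact 95% Clopper-Pearson interval of its CPM ratio excluded 1. Between day 3 and day 2.5 with TMM, the interval condition left out no component or contig past 4-fold, so the fold alone decided these calls. Values said to be in day order run from day 1 and day 2 through day 2.5 and day 3 to day 4 and day 5. Some libraries share features across stages that are not neighbours. The libraries of days 2.5, 4 and 5 share 96 components whose CPM in each was more than 4 times that of each of days 1, 2 and 3. These 96 had a median of 0.0549 CPM at day 3 and 3.03 CPM at day 2.5. Total counts of falls called, falls lasting and falls called against day 2 are given with and without them.

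With TMM scaling, large rises outnumbered large falls between these stages, while changes of 2-fold were close to balanced. At day 3, 1611 components were higher by 4-fold or more and 749 were lower. Called components made up 7.58% of those tested, with 5.17% higher and 2.4% lower. Without the 96 components the called falls numbered 664. The balance depended on scaling. At 4-fold, plain library totals gave 1090 higher and 1690 lower, and the deposited TPM gave 1486 higher and 2489 lower. At 2-fold, where TMM gave 5731 higher and 5155 lower, library totals gave 3824 higher and 8633 lower, and TPM gave 4080 higher and 10005 lower.

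Among components the share of rises grew with the size of the change. The changes of 2-fold made up 35% of those tested. At 8-fold 490 were higher and 98 lower, together 1.89%. At 16-fold 185 were higher and 14 lower, together 0.639%, and at 64-fold 24 were higher and 0 lower, or 0.0771%. Single contigs did not show this climb at the top: 64.6% of those called at 16-fold were higher, and at 64-fold 115 were higher and 81 lower (58.7%). Among the 10549 components with 10 CPM or more in the higher of the 2 libraries, 1980 were higher and 2091 lower at 2-fold, while 167 were higher and 11 lower at 16-fold. Most components moved little, since 65.0% stayed within 2-fold. The median log2 fold was -0.02, with quartiles of -0.71 and 0.73.

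**Figure D1:**
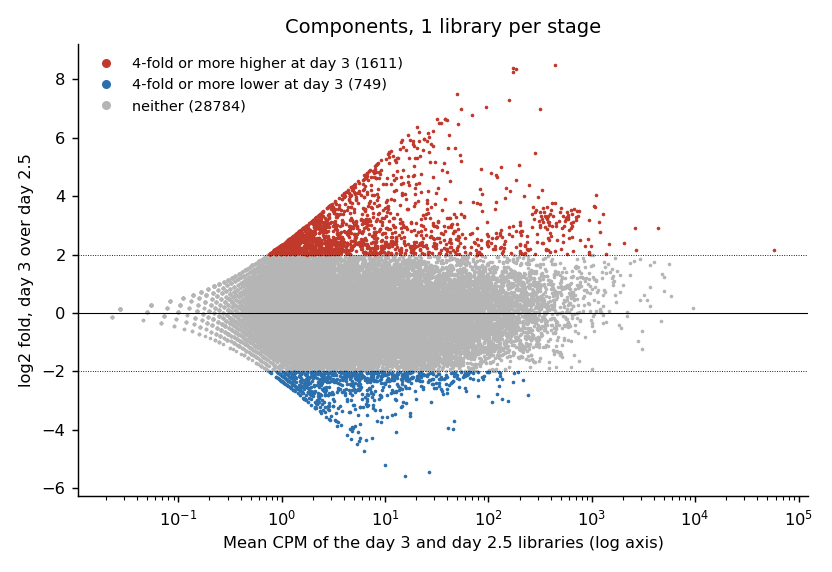
Each point is a component, placed by its mean CPM in the day 3 and day 2.5 libraries (log axis) and by its log2 fold of day 3 over day 2.5, with dotted lines at 4-fold. The 1611 higher components reach a log2 fold of 8.50, the 749 lower ones reach -5.56, and a dense group of higher components stands above 200 CPM.

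The components called higher took 22.6% of all counts at day 3, against 5.21% at day 2.5. Without the most abundant component of the series, which is one of them, the shares were 14.3% at day 3 and 2.61% at day 2.5. The components called lower took 0.253% of counts at day 3, against 1.98% at day 2.5. The called falls covered little of the library at either stage.

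Many rises began at the limit of detection. Of the 1611, 404 (25.1%) had fewer than 3 counts at day 2.5, beside 1191 of the 31144 components tested. In 262 of them each of the libraries of days 1, 2 and 2.5 had fewer than 3 counts, and in 94 all of these libraries were at 0. Such components could reach the minimum count over the 6 libraries only with counts from day 3 or later. The 262 had medians of 2.69 CPM at day 3, 3.26 at day 4 and 2.47 on day 5. Another 334 of the 1611 already had 100 or more counts at day 2.5. Of the 749 falls, 158 (21.1%) had fewer than 3 counts at day 3, beside 629 of the 31144 components tested.

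Components that share an assembly graph, the part of the identifier before the component number, may come from related sequences. The 1611 rises came from 1451 graphs, of which 135 held several rises, and the 749 falls came from 682 graphs, of which 57 held several. These shared graphs held 295 of the rises (18.3%) and 124 of the falls (16.6%). Among all components tested, 43.5% shared a graph with any other tested component. That is a wider measure than a rise with a rise or a fall with a fall, so these shares cannot be compared directly. A rise and a fall occurred together in 11 graphs.

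The 2 largest rises that were also called against day 2 were lcl|comp290154_c2 and lcl|comp289839_c1. The component lcl|comp290154_c2, a single contig of 3514 nt, had 3, 31, 43, 16099, 35906 and 24753 counts in day order. It was close to 0 up to day 2.5 and abundant in each later library. It had 884 CPM at day 3, against 1.94 CPM at day 2.5, a 455-fold difference with a counting interval of 338 to 629.

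The component lcl|comp289839_c1, of 4 contigs with the longest at 825 nt, had 5, 31, 12, 6252, 1093 and 1128 counts in day order. Its level was highest at day 3 and lower, though far above day 2.5, at both later stages. It had 343 CPM at day 3, against 0.542 CPM at day 2.5, a 633-fold difference with an interval of 362 to 1226. All 4 of its contigs were called higher.

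The 2 largest falls by the same rule were lcl|comp288823_c2 and lcl|comp279151_c0. The component lcl|comp288823_c2, of 6 contigs with the longest at 4749 nt, had 1529, 179, 1157, 13, 8 and 49 counts in day order. It had 0.714 CPM at day 3, against 52.3 CPM at day 2.5, a ratio of 0.0137 with an interval of 0.00725 to 0.0234. The component lcl|comp279151_c0, a single contig of 2229 nt, had 430, 49, 442, 1, 16 and 55 counts in day order. Its ratio of day 3 to day 2.5 was 0.00275, with an interval of 6.95e-05 to 0.0154. Both components were also low at day 2, between high values at days 1 and 2.5, so their course was not a steady decline. Against day 2 their log2 folds at day 3 were smaller, at -2.94 for lcl|comp288823_c2 and -2.39 for lcl|comp279151_c0.

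The gain in CPM was concentrated in few components and the loss was spread. Of the summed gain, 15.5% lay in the most abundant component and 47.5% in the 100 largest gains, whereas 21.1% of the summed loss lay in the 100 largest losses. Called components made up 53 of those gains and 9 of those losses.

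The largest gain belonged to the most abundant component, whose longest contig has 7607 nt. In day order it took 9.11%, 6.47%, 2.60%, 8.34%, 9.72% and 7.79% of counts. The day 2.5 library was the low one for this component, and its log2 fold of 2.14 at day 3 became 0.76 when day 3 was set against day 2. The second largest gain, a single contig of 1807 nt, followed another course, with 23.2, 391, 1009, 7668, 10837 and 14360 CPM in day order. It was higher in each successive library. The gains ranked 3 to 5 had log2 folds of 1.69, 1.76 and 1.32 and were not called.

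None of the 5 largest losses was called. Their log2 folds were -1.25, -0.95, -0.63, -1.91 and -0.28. The fourth, a single contig of 3311 nt, had 3716, 2287, 1573, 417, 53.7 and 25.7 CPM in day order. It was lower in each successive library over the whole series.

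A dense group of 87 abundant components was picked from the plot of fold against abundance after its values were seen. Its bounds were a mean of 200 CPM or more in the 2 libraries and a log2 fold of 2.5 up to 4, so its size and fold are a description and carry no test. The median was 769 CPM at day 3 (quartiles 604 and 1089), against 93.7 CPM at day 2.5 (quartiles 63.2 and 123). The group took 7.66% of counts at day 3, against 1.20% at day 2.5, and 16.3% of the summed gain in CPM.

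Steps other than day 2.5 to day 3 did not set the bounds of the group. Its members moved closely together after day 3, and less so before day 2.5. Its median in day order was 11.3, 43.3, 93.7, 769, 1269 and 1341 CPM. Between day 4 and day 3 the members' log2 folds had an interquartile range of 0.16, against 1.15 in the 885 other called rises with 100 or more counts at day 3 and 1.01 in all 895 components of 200 CPM or more. Between day 5 and day 4 the range was 0.19 in the group, against 0.85 in those 885 and 0.55 in the 895. Between day 2 and day 1 it was wider in the group, at 1.51, against 1.10 in the 885 and 0.49 in the 895. Between day 2.5 and day 2 it was 0.63, against 0.83 and 0.39. The step from day 3 to day 4 shares the day 3 library with the bounds, and that from day 2 to day 2.5 shares the day 2.5 library. The part of depth in these ranges was not tested. Not each member kept in step, since the lowest log2 fold of day 4 over day 3 was -3.63. The members were short for abundant components, with a median longest contig of 1125 nt against 2946 nt for the 895. Over all components tested the median was close to that of the group, at 1292 nt. Of the 87, 64 consisted of 1 contig, beside 17742 of the 31144 components tested.

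Whether abundance went with change depended on which libraries set the abundance class. Classed by mean CPM over the 6 libraries, 10.5% of the 1839 components of 100 CPM or more were higher at day 3 and 1.03% were lower. For the same components the deposited TPM gave 7.29% higher and 3.86% lower, and library totals 7.61% and 3.05%. In the class under 1 CPM, 1.99% of 6118 were higher and 1.62% lower, and the classes between ran from 5.13% to 6.10% higher. These shares stand beside 5.17% higher and 2.4% lower over all components. The constant added to CPM before folds are taken shrinks the folds of components with low levels. The low shares in the class under 1 CPM are therefore in part set by the rule for calls. How large that part is was not tested. Components were also classed by mean CPM of days 1 and 2 alone, which enter neither side of the comparison. Then 10.2% of the 9339 components under 1 CPM were higher and 1.18% of the 1778 components of 100 CPM or more were. The lowest of these classes is not free of the later libraries. Its members could reach the minimum count over the 6 libraries only with counts from day 2.5 or later, day 3 among them. The part of this filter in the 10.2% was not tested. With days 1 and 2 setting the class, the share of falls varied little, from 1.97% to 2.95%. The added constant also limits falls in the lowest of these classes.

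With TMM scaling the share of rises over all components differed little by longest contig up to 4000 nt. The share higher at day 3 was 5.33% under 1000 nt, 5.55% from 1000 nt, 4.91% from 2000 nt, 2.88% from 4000 nt and 5.99% from 8000 nt, each class ending where the next begins. The last class had only 167 components, and its 95% Clopper-Pearson interval ran from 2.91% to 10.7%. The share lower was between 2.33% and 2.62% in the classes under 8000 nt and 0.599% above, where it was 1 component. These shares depended in part on scaling. With TPM the share higher was 6.87% under 1000 nt, 4.65% from 1000 nt, 2.59% from 2000 nt and 1.10% from 4000 nt. The share lower with TPM was 9.63%, 7.27%, 6.70% and 7.79% in these 4 classes. With library totals the share lower was 4.53%, 5.31%, 6.46% and 7.90%. The share higher with library totals was 3.67%, 3.82%, 3.17% and 1.73%, which, as with TMM, differed little up to 4000 nt. TPM folds also added 0.5 in TPM units, so they differ in more than scaling.

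**Figure D2:**
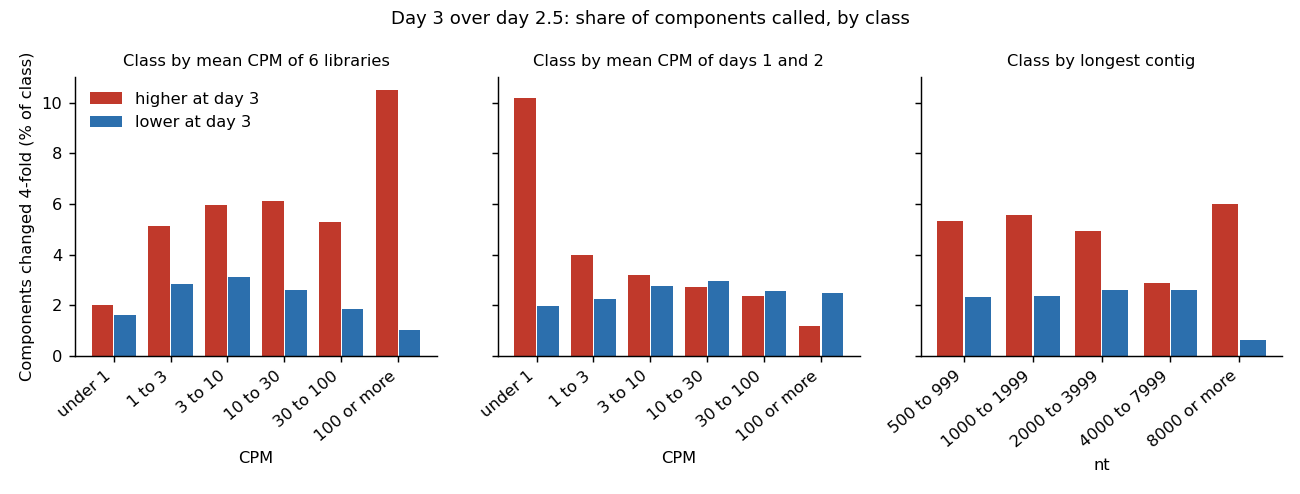
Bars give the percentage of components in each class that were higher (red) or lower (blue) at day 3 by 4-fold or more, with classes by mean CPM over the 6 libraries, by mean CPM of days 1 and 2, and by longest contig in nt. Rises take 10.5% of the most abundant class in the first panel and 1.18% in the second.

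Among abundant components the share of rises was highest in the short classes, and its size depended on which libraries set the class. Components classed over the 6 libraries could pass 100 CPM through the later stages in which they were high, so their shares are a description. Of the 103 components of 100 CPM or more over the series with a longest contig under 1000 nt, 47 were higher at day 3 (45.6%) and 0 were lower. The share higher was 20.2% from 1000 nt, 7.85% from 2000 nt, 2.29% from 4000 nt and 1.28% from 8000 nt. The order held in all 15 combinations of 5 ways of setting the class and 3 scalings, in the sense that the share never increased with length. These combinations overlap in members and libraries, and only the classes set by days 1 and 2 leave out day 3. They are therefore not separate checks. With the class set by days 1 and 2 it was 7.02% in the shortest class (4 of 57, 95% Clopper-Pearson interval 1.95% to 17.0%), 2.54% from 1000 nt, 0.767% from 2000 nt, 0.680% from 4000 nt and 0% of the 75 from 8000 nt. With this class, rises and falls together kept that order with TMM and with library totals, but not with TPM. From the shortest class to the longest, TMM gave 7.02%, 5.43%, 3.58%, 2.89% and 1.33% of components called. Library totals gave 8.77%, 8.70%, 7.80%, 7.14% and 5.33%, and TPM gave 7.02%, 9.06%, 8.95%, 9.18% and 5.33%. Of the 103 short components, 35 belong to the dense group of 87.

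Median levels depended on the class in the same way. Over the 6 libraries the 103 short abundant components had median levels of 55.5, 87.8, 106, 414, 429 and 354 CPM in day order. The 78 abundant components of 8000 nt or more had medians of 228, 206, 199, 195, 210 and 197 CPM in that order. With the class set by days 1 and 2, the 57 short components had medians of 150, 173, 175, 223, 95.7 and 87.2 CPM, and the 75 long ones 250, 211, 206, 184, 168 and 175 CPM. With TMM scaling the short class was thus higher at day 3 than at day 2.5 under both classings, and by less under the second. Under the second classing the direction depended on scaling. The median log2 fold of these 57 components was 0.245 with TMM, -0.211 with library totals and -0.265 with TPM. The share of counts of the 78 long components was 1.76% at day 3, against 2.44% at day 2.5. The mean fragment length implied by the effective lengths in the files was 83.08 nt at day 3 and 89.61 nt at day 2.5, and its part in the difference by length was not tested.

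**Figure D3:**
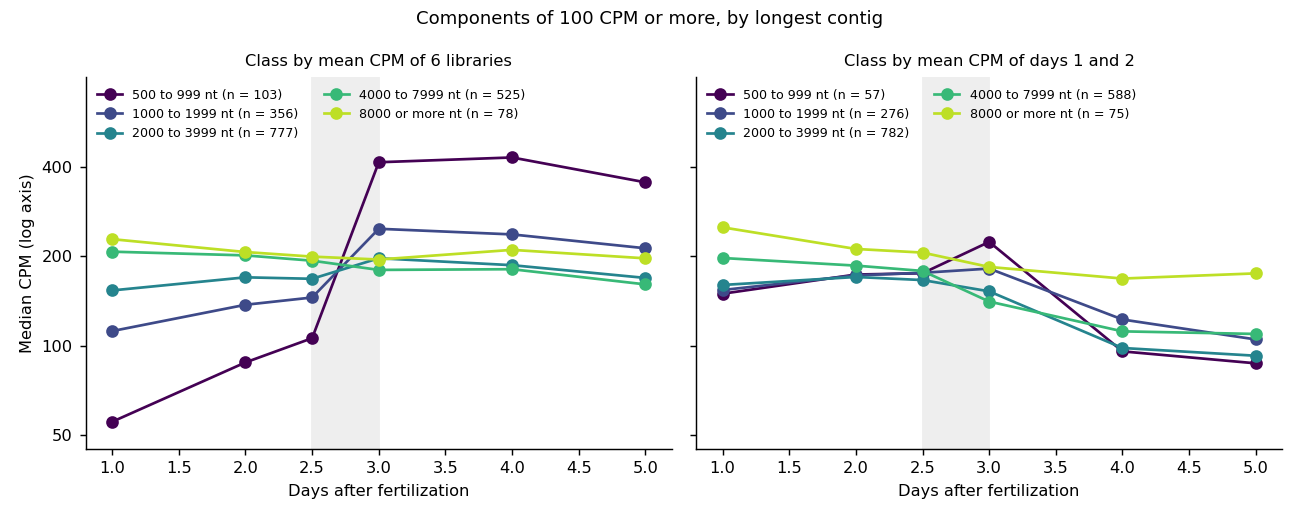
Lines give the median CPM (log axis) of components of 100 CPM or more against days after fertilization, by length class of the longest contig, with the class set by 6 libraries (left) or by days 1 and 2 (right) and the interval between day 2.5 and day 3 shaded. The shortest class is at 414 CPM at day 3 and 106 CPM at day 2.5 on the left, and at 223 CPM and 175 CPM on the right.

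Most rises lasted. Of the 1611, 1091 (67.7%) were also called higher than day 2.5 at both day 4 and day 5, against 7.95% of all components tested. A further 208 were past 4-fold at day 4 alone, 76 at day 5 alone and 236 at neither. These counts share the day 2.5 library with the comparison that chose the members, so they are not independent of it. With day 2 as the baseline, 1286 (79.8%) were called higher at day 3, against 6.26% of all components, and 1022 (63.4%) at both day 4 and day 5, against 9.01%. The 1286 still share the day 3 library with the comparison that chose the members, so that count is not independent of it either. Of the 1611, 62 were within 2-fold of day 2 at day 3.

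A rise far past 4-fold can lose more and still count as lasting, so the share lasting is given by fold class as a description. The share lasting to both later days was 59.1% of the 1121 rises of 4-fold to 8-fold, 84.9% of the 305 of 8-fold to 16-fold and 91.9% of the 185 of 16-fold or more. All 24 rises past 64-fold lasted. At day 4, 1039 of the 1611 (64.5%) were within 2-fold of day 3, beside 72.0% of all components, while 381 were at least 2-fold above and 191 at least 2-fold below. The lasting rises had median levels of 0.476, 0.938, 0.768, 13.1, 27.3 and 24.7 CPM in day order. The 236 that lasted to neither day had medians of 4.12, 1.54 and 1.25 CPM over days 3, 4 and 5.

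Falls were followed in the same way. Of the 749, 428 (57.1%) were also called lower than day 2.5 at day 4 and day 5, against 7.27% of all components. Another 123 were past 4-fold at day 4 alone, 24 at day 5 alone and 174 at neither, and 84 of these 174 belong to the 96 components shared by days 2.5, 4 and 5. Without those components 428 of 664 falls (64.5%) lasted. The 96 were chosen as higher at days 4 and 5 than at day 3, and no called fall among them lasted. Leaving them out could therefore only raise the share. With all 749 falls, the lasting share did not climb with the size of the fall. It was 57.5% of 651 falls of 4-fold to 8-fold, 56.0% of 84 of 8-fold to 16-fold and 7 of 14 beyond. These classes include the 85 falls among the 96 components, and shares by size without them were not taken.

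Against day 2, 219 of the 749 falls (29.2%) were called at day 3, beside 2.12% of all components. Without the 96 components, which were chosen as low at both day 2 and day 3, it was 33.0% of the 664. These counts share the day 3 library with the comparison that chose the falls, so they are not independent of it. In 141 falls the day 2.5 library was itself 4-fold or more above day 2, and in 222 day 3 was within 2-fold of day 2. Of the 749 falls, 85 belong to the 96 components, which were chosen with day 2.5 more than 4 times days 2 and 3. That choice feeds both counts, and neither was taken without these 85 or over all components. Both later days were 4-fold below day 2 in 242 of the 749 falls (32.3%), beside 7.97% of all components. The 219 had median levels of 25.9, 15.9, 16.9, 2.80, 1.60 and 2.36 CPM in day order. Their median was lower in each library from day 3 on than in any earlier one. A day 3 level below days 2 and 2.5 was set by how the 219 were chosen. The other 530 had median levels of 2.44, 1.78, 5.42, 0.494, 0.800 and 1.11 CPM in day order, with the highest median at day 2.5. They were chosen as falls from day 2.5 that were not called from day 2, so a high day 2.5 is in part built in. Long falls were more often called against day 2 as well. This held for 20.6% of those under 1000 nt, 26.9% from 1000 nt, 35.9% from 2000 nt and 31 of the 50 from 4000 nt up to 8000 nt. These classes include the 85 falls among the 96 components, none of which was called against day 2. The 96 were short, with a median longest contig of 865 nt. Shares by length without them were not taken, and the part of abundance in this order was not tested.

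**Figure D4:**
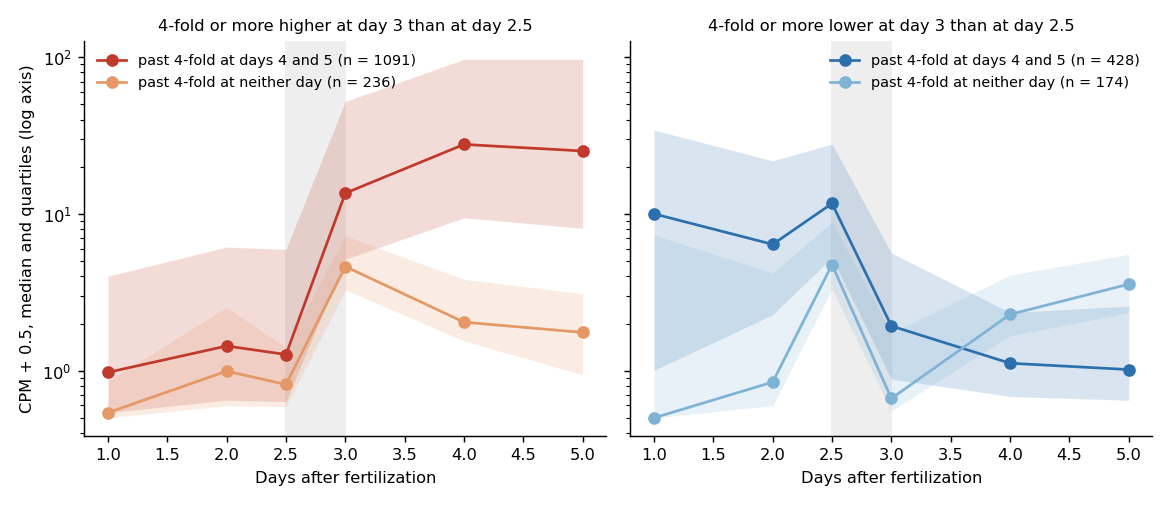
Lines give the median and shading the quartiles of CPM + 0.5 (log axis) by day for components higher (left) or lower (right) at day 3 than at day 2.5 by 4-fold or more, split by whether they were past 4-fold from day 2.5 at days 4 and 5 or at neither. Lasting rises (1091) stay high and lasting falls (428) stay low, while the 174 falls past 4-fold at neither later day are high at day 2.5 and again at days 4 and 5. The groups were chosen by their levels from day 2.5 on, so these courses are in part built in.

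Counts by single contig gave more changes and a more even split than counts by component. At day 3, 4353 contigs were higher by 4-fold or more (9.16%) and 3038 were lower (6.39%), together 15.6% of those tested. Much of the excess lay within components. Of the 4353 higher contigs 1905 (43.8%) belonged to a component that was called higher, and 1587 (36.5%) to one that stayed within 2-fold. Of the 3038 lower contigs 818 (26.9%) belonged to a component called lower, and 1305 (43%) to one within 2-fold.

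Some contigs of the same component moved in opposite directions. In 624 of the 7872 components with 2 or more tested contigs (7.93%), 1 or more contigs were called higher and 1 or more lower, and 427 of these components stayed within 2-fold as a whole. Contigs alone in their component were higher in 5.20% and lower in 2.56% of cases, whereas contigs with others were higher in 11.5% and lower in 8.67%. The share of contigs called went up with contig length, from 10.4% under 1000 nt to 28.3% at 8000 nt or more. Contigs alone in their component showed no such climb in the 4 classes under 8000 nt, at 7.64%, 8.10%, 7.49% and 6.32%. Only 15 of them had 8000 nt or more, of which 1 was higher and 1 lower (13.3%). How RSEM divided fragments among similar contigs in each library was not tested. A pattern that sets days 1, 2.5 and 5 at least 4-fold apart from days 2, 3 and 4 contains the difference between day 3 and day 2.5. It was found in 352 of the higher contigs (8.09%) and 138 of the lower (4.54%), and over all tested contigs in 434 with days 2, 3 and 4 high (0.913%) and 204 with them low (0.429%).

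Scaling decided the split at 4-fold and left the largest changes on the same side. Over all components the median log2 fold came to -0.02 under TMM, 0.04 under DESeq2's factors and 0.05 under the upper quartile. It was -0.38 with library totals and -0.48 with the deposited TPM. DESeq2 factors gave 1716 higher and 654 lower (7.61% called), library totals 1090 and 1690 (8.93%), and TPM 1486 and 2489 (12.8%). The calls did not simply follow the medians, since TPM gave more rises than library totals at a lower median. Folds from TPM added 0.5 in TPM units in place of 0.5 CPM, so they differ in more than scaling. Leaving the most abundant component out of the totals gave 1230 higher and 1507 lower (8.79%), and leaving out the 100 most abundant gave 1597 and 1370 (9.53%).

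At 16-fold more components were higher than lower under each of the 8 scalings. Library totals gave 142 higher and 27 lower (0.543% called), and TPM gave 195 and 109 (0.976%). Under all 8 scalings 1013 components were called higher, 62.9% of the TMM rises, and 749 of them lasted to days 4 and 5. Likewise 641 were called lower, 85.6% of the TMM falls, and 367 of them lasted.

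**Figure D5:**
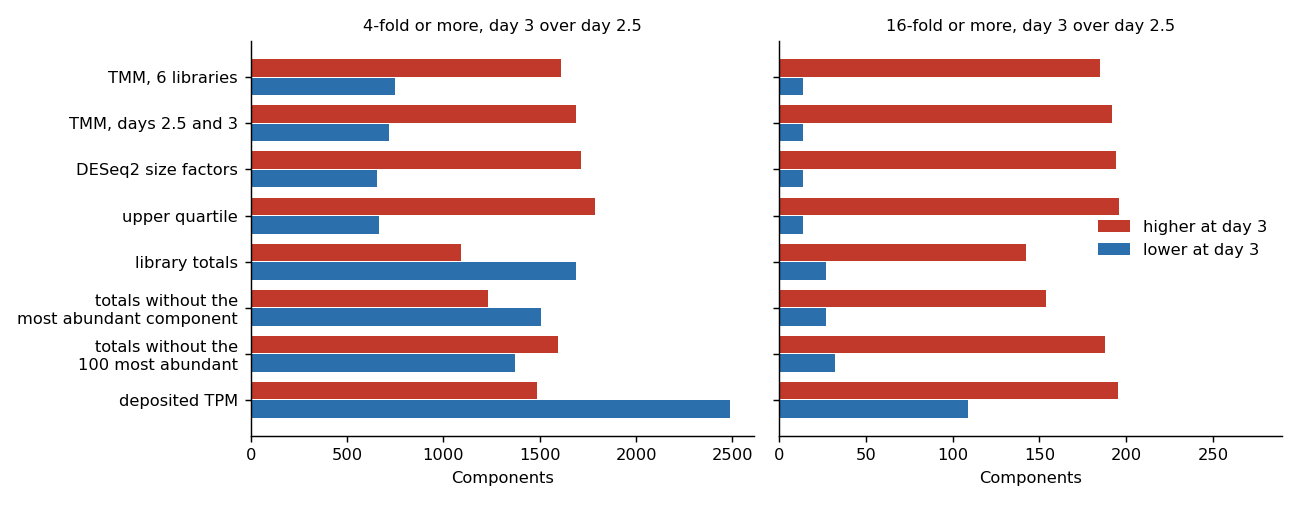
Bars count the components higher (red) or lower (blue) at day 3 under each of 8 scalings, at 4-fold (left) and at 16-fold (right). At 4-fold the larger group is the higher one with TMM (1611 against 749) and the lower one with TPM (1486 against 2489), and at 16-fold the higher group is the larger in each.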

How the data were processed

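RNA-seq of 6 whole-embryo libraries was analysed, 1 per stage. The authors quantified contigs with RSEM, which the submitters' processing notes name. For its version, for the aligner and for the assembler, the detail is not given in the sources used. The deposited expected counts are RSEM's estimated counts and need not be whole numbers. The deposited TPM values were used only as an alternative scaling.

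Contig counts were rounded, and component counts were summed and then rounded. Features with 60 or more counts over the 6 libraries were kept. TMM factors came from edgeR 4.0.16 and size factors from DESeq2 1.42.0 in R 4.3.3; no dispersion or p-value was computed, as each stage has 1 library. Folds used CPM with a pseudocount of 0.5, or TPM with a pseudocount of 0.5 in TPM units. Intervals are exact 95% Clopper-Pearson intervals from scipy 1.17.1. The procedure was run on simulated libraries with counting noise only, which cannot show how variation between embryos or libraries would affect the calls.

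Components named by ID were the 2 largest rises and 2 largest falls that had at least 100 counts in 1 of the 2 libraries and were called the same way against day 2; the 5 largest gains and losses in CPM are given by rank. The members, classes and rules were chosen with earlier results of these data known. Alternatives were other scalings, a pseudocount of 5, thresholds of 2-fold and 8-fold, contigs in place of components, and day 2 in place of day 2.5.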

Additional observations from a re-analysis of the deposited data

How the results depend on the processing

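No paired analysis was possible because the stages have 1 library each, and no library was left out for the same reason. Depth limits components near 3 counts, and no setting measures variation between embryos. The excess of rises over falls at 4-fold turned into an excess of falls with library totals, with TPM and with totals without the most abundant component. No fold of a component named by ID changed sign. The naming rule took the largest folds and required the same direction against day 2, so this is no separate check. The fold of lcl|comp279151_c0, -5.21 with a wide counting interval, became -2.30 with a pseudocount of 5 and -2.39 against day 2. Counts that moved by more than 1.5 times, and shares that left their 95% interval, are given next, and for these the cause was not tested, beyond what a stricter or looser threshold does by construction.

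The 2360 components called became 3975 with TPM, 454 with a pseudocount of 5, 588 at 8-fold, 10886 at 2-fold and 7391 when contigs were used. The 7391 contigs called became 1240 with a pseudocount of 5, 2829 at 8-fold and 20678 at 2-fold. The share of called components that were higher, 68.3%, became 72.4% with DESeq2 factors, 37.4% with TPM, 39.2% with library totals, 88.1% with a pseudocount of 5, 83.3% at 8-fold, 52.6% at 2-fold, 58.9% with contigs and 74.8% against day 2. Under settings chosen after seeing the data it was 70.2% with TMM of the 2 libraries alone, 72.8% with the upper quartile, 44.9% with totals without the most abundant component, 53.8% with totals without the 100 most abundant, and 70.8% without the 96 components high at days 2.5, 4 and 5.

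The 1091 lasting rises became 343 with a pseudocount of 5, 366 at 8-fold, 3807 at 2-fold and 2276 with contigs. The 428 lasting falls became 1608 with TPM, 1081 with library totals, 47 with a pseudocount of 5, 38 at 8-fold, 3427 at 2-fold and 1397 with contigs. The share of components of 100 CPM or more that were called, 11.5%, became 4.84% at 8-fold, 37.3% at 2-fold, 16% with contigs, 15% against day 2 and, in a setting chosen after seeing the data, 3.66% when days 1 and 2 set the class. The share called among components from 4000 nt, 5.58%, became 8.66% with TPM, 9.48% with library totals, 1.73% with a pseudocount of 5, 1.20% at 8-fold, 33.6% at 2-fold, 25.4% with contigs and 8.27% against day 2.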
